A study of Mus musculus with 8 samples.

Results

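Transcripts of 10 secreted signalling proteins were followed in rib chondrocytes of mice with and without the microRNA gene *Mir140*: the CXC chemokines *Cxcl1*, *Cxcl2*, *Cxcl5* and *Cxcl12*, the CC chemokines *Ccl2*, *Ccl7* and *Ccl20*, and the cytokines *Il6*, *Lif* and *Csf2*. These genes were chosen by name, with their earlier measured values known, and were found by their GENCODE symbols as 10 of the 52325 gene identifiers listed. Their genotype differences are therefore given as a description, without a test. RNA-seq of costal (rib) chondrocytes, released from the rib cartilage of 7-day-old mice with collagenase, was available for 4 wild-type control and 4 *Mir140*-null libraries, labelled replicates 1 to 4 of each genotype. All mice had the C57BL/6J strain background. The null allele was a germline CRISPR/Cas9 deletion of the *Mir140* locus, made in embryos of mixed C57BL/6 and CBA/ca origin. After backcrossing, separate wild-type and null lines were bred from heterozygotes, and every cell of the null mice lacked the gene, not only the chondrocytes. The labels do not say whether each library came from its own animal, and p-values therefore measure the spread between these libraries. The values are TPM (transcript abundances scaled for length so that each library sums to 1000000), and the read depth of a library cannot be recovered from them.

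Chemokines are small secreted proteins that guide leukocytes along gradients by binding G protein-coupled receptors. The CXC chemokines *Cxcl1*, *Cxcl2* and *Cxcl5* attract neutrophils through *Cxcr2*, *Ccl2* and *Ccl7* attract monocytes through *Ccr2*, and *Ccl20* attracts *Ccr6*-bearing lymphocytes and dendritic cells. *Il6* and *Lif* signal through receptors that share the gp130 subunit encoded by *Il6st*, and *Csf2* encodes GM-CSF, a growth factor of granulocytes and macrophages. Chondrocytes exposed to IL-1 or TNF make many of these proteins. Their transcription is classically driven by NF-kB, and many of their mRNAs are short-lived because of AU-rich elements in the 3′UTR.

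All 10 are protein-coding genes of the nuclear genome (GRCm38, the build called mm10). *Cxcl5* (chr5:90759360-90761624), *Cxcl1* (chr5:90891241-90893115) and *Cxcl2* (chr5:90903871-90905938) lie in 1 chemokine cluster on the plus strand, and *Ccl2* (chr11:82035571-82037453) and *Ccl7* (chr11:82045712-82047525) are neighbours on the plus strand in another. *Csf2* (chr11:54247271-54249667, minus strand) and *Lif* (chr11:4257557-4272514, plus strand) lie elsewhere on that chromosome, *Il6* is at chr5:30013114-30019981, *Cxcl12* at chr6:117168535-117181367 and *Ccl20* at chr1:83116766-83119167, each on the plus strand.

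Promoter sequence from RefSeq (GRCm38.p6), from 250 bases before to 50 bases after the start site, was found for 7 of the 10 genes, not including *Cxcl5*, *Ccl2* and *Ccl7*. On either strand, the NF-kB motif (GGG, any 3 bases, TTCC) occurred in 4 of these 7 windows, those of *Cxcl1*, *Cxcl2*, *Ccl20* and *Il6*, and in 5.56% of 32851 promoter windows of the same length. One site of each is shown, with the motif in capitals, together with that of *Cxcl3*, the chemokine gene between *Cxcl5* and *Cxcl1* in the cluster. The sites span chr5:90891164-90891193, chr5:90903792-90903821, chr1:83116676-83116705, chr5:30013060-30013089 and chr5:90786018-90786047, all on the plus strand, and the *Ccl20* motif reads on the opposite strand.
*Cxcl1* promoter: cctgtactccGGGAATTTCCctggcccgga
*Cxcl2* promoter: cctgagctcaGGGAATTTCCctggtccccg
*Ccl20* promoter: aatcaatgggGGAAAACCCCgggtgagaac
*Il6* promoter: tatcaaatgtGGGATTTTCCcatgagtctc
*Cxcl3* promoter: gagctgcgggGGGAATTTCCccagcccggg

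The same 10 letters, GGGAATTTCC, stood in the *Cxcl1*, *Cxcl2* and *Cxcl3* windows, 71, 97 and 73 bases before the start site of RefSeq, counted to the first base of the motif. In the *Cxcl1* and *Cxcl2* windows a match on the opposite strand overlaps this one by all but 1 base, and with both counted each of these windows held 3 matches. The AP-1 motif TGANTCA, which is its own reverse complement, was found in the windows of *Il6* and *Lif* (7.81% of all windows). The C/EBP motif TTGCNNAA was found in those of *Il6* and *Csf2* (10.8% of all windows), and the letters TATAAA in none of the 7 (13.6%). A match is a description of the letters and not evidence of binding.

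The 3′UTRs of several members hold AU-rich elements. With each gene represented by its longest annotated 3′UTR, the AU-rich heptamer TATTTAT (written as DNA) occurred in 8 of the 10 genes and in 26.7% of 21699 3′UTRs, whose median length is 917 bases. Only *Ccl2* and *Ccl7* among the members had none, in 3′UTRs of 275 and 435 bases. The longer nonamer TTATTTATT occurred in 4 of the 10 genes, *Csf2*, *Cxcl2*, *Cxcl1* and *Lif*, against 7.42% of all 3′UTRs. *Csf2* held 9 heptamers, some of which overlap, and 4 nonamers in 317 bases, *Cxcl2* held 7 and 4 in 1494 bases, *Cxcl1* held 6 and 2 in 592 bases, and *Lif* held 5 and 2 in 3180 bases. One 24-base stretch of each is shown, with 1 nonamer in capitals, at chr11:54247331-54247354 (minus strand), chr5:90905339-90905362, chr5:90892618-90892641 and chr11:4272042-4272065 (plus strand).
*Csf2* AU-rich stretch: taaatatTTATTTATTtatttatt
*Cxcl2* AU-rich stretch: tatgtatTTATTTATTtattaatt
*Cxcl1* AU-rich stretch: tatgtatTTATTTATTccacaaag
*Lif* AU-rich stretch: ggggcctTTATTTATTatttaaaa

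The deleted gene makes miR-140-5p and 2 forms of miR-140-3p that differ by 1 base at the 5′ end and so in their seed, the stretch that pairs with targets. The annotated miR-140-3p of RefSeq (chr8:107551288-107551308 of GRCm38.p6, plus strand, in an intron of *Wwp2*) is shown with the seed of each form in capitals.
miR-140-3p with the seed of miR-140-3p.2: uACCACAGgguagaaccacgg
miR-140-3p with the seed of miR-140-3p.1: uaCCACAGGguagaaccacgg

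Of the 10 genes, 4 held a 7-base match to the seed (bases 2 to 8) of at least 1 of the 3 microRNAs in the 3′UTR. The miR-140-5p match AACCACT was in *Cxcl1* and *Il6* (9.41% of all 3′UTRs), the miR-140-3p.1 match CCTGTGG was in *Cxcl12* at 3 places and in *Lif* (16.5%), and the miR-140-3p.2 match CTGTGGT was in *Il6* and *Lif* (15.6%). Only *Lif* was on the target predictions listed by the study, for miR-140-3p.1. That list is of human genes (TargetScanHuman) and was matched by symbol. A mouse gene without a human gene of the same name could not be found on it. The *Cxcl1* site at chr5:90892777-90892800, the *Il6* site at chr5:30018720-30018743 and the *Lif* site at chr11:4272371-4272394 are shown, with the seed match in capitals.
*Cxcl1* miR-140-5p match: taagtgtcAACCACTgtgctagta
*Il6* miR-140-5p match: tgcacaggAACCACTtagggtctt
*Lif* miR-140-3p.1 match: gaatgtacCCTGTGGgaatgtttc

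The libraries held abundant chondrocyte transcripts. *Col2a1*, the type II collagen of cartilage, was at 47893 to 61630 TPM in wild-type and at 34418 to 48361 TPM in *Mir140*-null libraries (adjusted p of limma = 0.0695). Of 11 chondrocyte markers, 1 was up (*Acan*) and 3 were down (*Col9a1*, *Col11a1* and *Hapln1*) at an adjusted p of limma under 0.05, beside 10.5% and 6.40% of all genes. *Acan* and *Hapln1* passed in all 8 fits with 1 library left out, and *Col9a1* and *Col11a1* in 1. The deleted *Mir140* itself was read in 1 library only, labelled *Mir140*-null replicate 2 (8.86 TPM), and was 0 elsewhere. As this gene does not separate the genotypes in poly(A) RNA, the grouping rests on the labels. *Mir140*-null replicates 1 and 2 stood apart from the other 6 libraries: *Col1a1*, the type I collagen of fibrous tissue and bone, was at 47.8 and 50.1 TPM in these 2 libraries and at 793 to 1544 TPM in the other 6. The other *Mir140*-null libraries, replicates 3 and 4, had 1326 and 898 TPM. Mitochondrially encoded transcripts took 4.06% to 6.98% of the TPM in wild-type and 8.41% to 10.1% in *Mir140*-null libraries. The genotype differences of the members are therefore also given without these 2 libraries.

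Rib chondrocytes of both genotypes contained transcripts of all 10 genes. Their mean TPM ran from 0.609 to 1055 in wild-type and from 3.04 to 2231 in *Mir140*-null libraries. *Cxcl1* was the most abundant, at rank 136 of all genes by mean TPM in wild-type and rank 61 in *Mir140*-null libraries, followed by *Cxcl2* at ranks 541 and 147. The 2 transcripts made up 68.3% and 14.4% of the summed TPM of the 10 genes in wild-type and 61.9% and 25.6% in *Mir140*-null cells. In wild-type, *Lif* (85.2 ± 11.6 TPM, SD, n = 4), *Ccl7* (67.9 ± 14.3 TPM) and *Ccl2* (55.4 ± 6.66 TPM) followed, and neighbours in this order overlapped between libraries. *Il6* (37.7 ± 8.56 TPM) and *Csf2* (13.6 ± 0.533 TPM) came next, each without overlap with its neighbours. *Ccl20* (3.36 ± 0.67 TPM) and *Cxcl12* (2.81 ± 1.05 TPM) overlapped each other, and *Cxcl5* was the lowest (0.609 ± 0.317 TPM). In *Mir140*-null cells the order of the genes after *Cxcl1* and *Cxcl2* differed between the libraries.

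**Figure D1:**
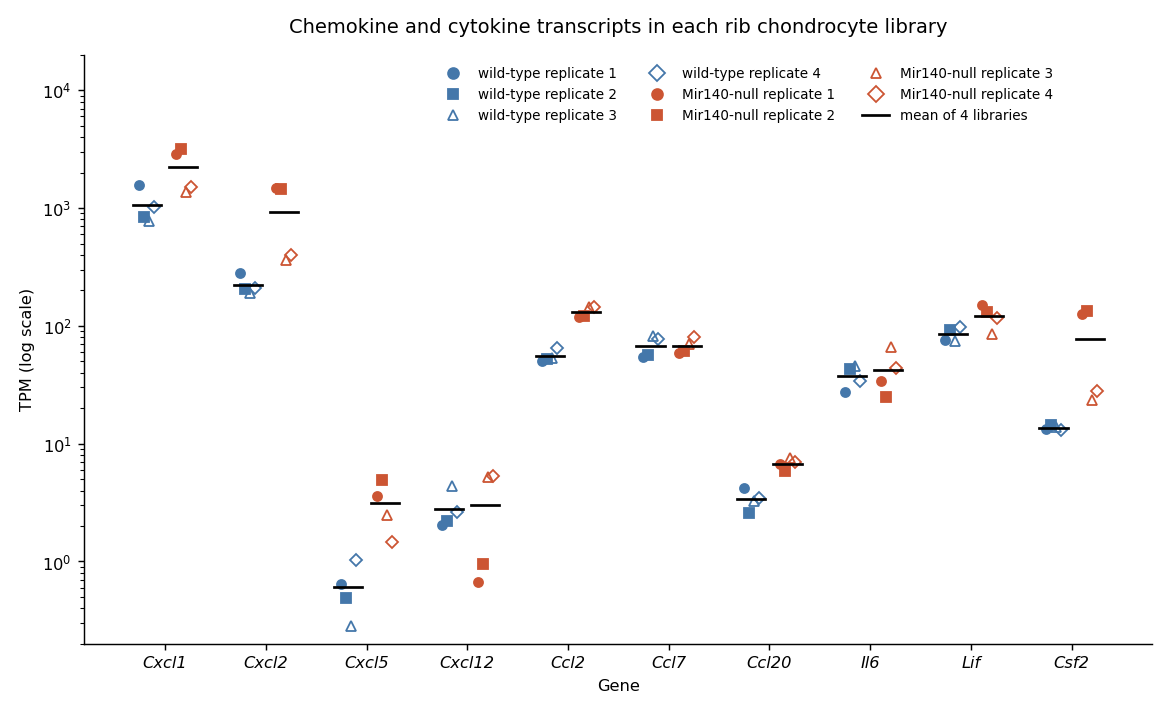
TPM of each of the 10 genes on a log axis in the 4 wild-type (blue) and 4 *Mir140*-null (red) libraries, with a symbol for each replicate number, filled for replicates 1 and 2, and a black line at the mean of 4 libraries. The genotypes do not overlap for *Cxcl2*, *Cxcl5*, *Ccl2*, *Ccl20* and *Csf2*, and the filled red symbols stand above the open ones for *Cxcl1*, *Cxcl2*, *Cxcl5*, *Lif* and *Csf2*.

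The 10 genes differed between the genotypes to different extents. Mean TPM was higher in *Mir140*-null than in wild-type libraries for 9 of the 10 genes, all except *Ccl7*, and the median of the 10 log2 fold changes, on the log2(TPM + 1) scale, was 0.94, beside -0.01 over the 17177 tested genes, which had 0.5 TPM or more in 4 or more libraries. All 10 passed that filter. The 4 *Mir140*-null values lay above the 4 wild-type values for 5 of the 10 genes (*Cxcl2*, *Cxcl5*, *Ccl2*, *Ccl20* and *Csf2*), as they did for 15.7% of all tested genes, while 10.2% of all tested genes had the reverse order. They overlapped for the other 5. As the 10 genes were chosen with these values known, nothing is read from their share. For genes other than the members, a call is a Benjamini-Hochberg adjusted p under 0.05 in the two-sided test of limma, and over all tested genes the calls were 10.5% up and 6.40% down.

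*Cxcl2*, a ligand of *Cxcr2*, stood at 278.9, 207.5, 190.4 and 210.4 TPM in wild-type replicates 1 to 4, and the *Mir140*-null replicates had 1482, 1441, 363.2 and 400.3 TPM in the same order. All *Mir140*-null libraries were above all wild-type libraries, but replicates 1 and 2 were far above replicates 3 and 4. The ratio of mean TPM was 4.15 and the log2 fold change 1.76 (SE 0.49), or 0.79 (SE 0.17) without replicates 1 and 2. *Cxcl1* was at 1579, 845.0, 779.2 and 1016 TPM in wild-type and at 2873, 3168, 1375 and 1506 TPM in *Mir140*-null libraries. The wild-type replicate 1 was above *Mir140*-null replicates 3 and 4, so the genotypes overlapped. The log2 fold change was 1.04 (SE 0.34), from mean TPM of 1055 ± 363 and 2231 ± 922 (SD, n = 4 each), and 0.51 (SE 0.29) without *Mir140*-null replicates 1 and 2.

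*Cxcl5* was scarce in wild-type, at 0.639, 0.485, 0.282 and 1.03 TPM, and was at 3.60, 4.96, 2.46 and 1.47 TPM in *Mir140*-null libraries. The groups did not overlap, and the lowest *Mir140*-null value was that of replicate 4. The log2 fold change of 1.30 (SE 0.28) understates the ratio of mean TPM of 5.13, because 1 is added to values near 1 before the log, and it was 0.88 (SE 0.23) without *Mir140*-null replicates 1 and 2. At 31 bases, 7.59% of the words in the *Cxcl2* transcripts occur in those of *Cxcl3* or another gene, while none of the words of *Cxcl1* is shared, so reads from a small part of *Cxcl2* can be split between neighbouring genes.

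*Cxcl12*, which retains hematopoietic cells and vessels through *Cxcr4* and is typical of stromal cells, behaved differently from the neutrophil attractants. It was at 2.03, 2.22, 4.33 and 2.64 TPM in wild-type and at 0.664, 0.960, 5.196 and 5.32 TPM in *Mir140*-null libraries. *Mir140*-null replicates 1 and 2 were below all other libraries and replicates 3 and 4 were above them. The mean difference of -0.14 (SE 0.48, log2) therefore averages 2 opposite values, and it became 0.75 (SE 0.25) without replicates 1 and 2. The same 2 libraries held little *Col1a1*, and whether the fibroblast content sets the *Cxcl12* level was not tested. In bulk RNA, fewer cells of a type and less RNA per cell cannot be told apart.

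Of the CC chemokines, *Ccl2* differed between the genotypes with the least spread. It was at 50.3, 52.7, 53.4 and 65.2 TPM in wild-type and at 119.0, 121.5, 143.6 and 143.6 TPM in *Mir140*-null libraries. The 2 groups were separated by a wide gap, and the *Mir140*-null replicates 1 and 2 were here the lower pair. The log2 fold change was 1.24 (SE 0.12), and 1.37 (SE 0.13) without that pair. *Ccl7*, its neighbour in the cluster, was at 54.4, 57.0, 82.5 and 77.8 TPM in wild-type and at 59.0, 60.9, 69.6 and 80.6 TPM in *Mir140*-null libraries. These ranges overlapped almost fully, and the log2 fold change was 0.00 (SE 0.17), or 0.16 (SE 0.21) without *Mir140*-null replicates 1 and 2.

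*Ccl20* was at 4.20, 2.58, 3.23 and 3.45 TPM in wild-type and at 6.66, 5.84, 7.56 and 6.97 TPM in *Mir140*-null libraries. Every *Mir140*-null library was higher than every wild-type library, the mean TPM ratio was 2.01 and the log2 fold change was 0.84 (SE 0.15). *Ccl2* and *Ccl20* were the 2 members whose genotypes were separated and whose difference did not shrink without *Mir140*-null replicates 1 and 2, with 0.93 (SE 0.18) for *Ccl20*.

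*Csf2* had a log2 fold change of 2.01 (SE 0.58), the largest of the 10 genes with all 8 libraries. The wild-type libraries were close to each other, at 13.4, 14.3, 13.8 and 13.1 TPM. The *Mir140*-null libraries fell into 2 pairs, 127.0 and 133.3 TPM in replicates 1 and 2 and 23.4 and 27.8 TPM in replicates 3 and 4, all above wild-type. Without replicates 1 and 2 the log2 fold change was 0.86 (SE 0.12), below those of *Ccl2*, *Ccl20* and *Cxcl5*.

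The 2 ligands of gp130 receptors overlapped between the genotypes. *Lif* was at 76.2, 92.3, 74.5 and 97.9 TPM in wild-type and at 149.6, 131.1, 85.0 and 116.8 TPM in *Mir140*-null libraries. Only *Mir140*-null replicate 3 lay within the wild-type range, and the log2 fold change was 0.48 (SE 0.18), or 0.23 (SE 0.18) without *Mir140*-null replicates 1 and 2. *Il6* was at 27.3, 43.2, 46.0 and 34.3 TPM in wild-type and at 34.0, 25.1, 66.4 and 44.3 TPM in *Mir140*-null libraries. *Mir140*-null replicate 2 was the lowest of all libraries and replicate 3 the highest, and the log2 fold change was 0.11 (SE 0.30), or 0.54 (SE 0.26) without *Mir140*-null replicates 1 and 2.

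**Figure D2:**
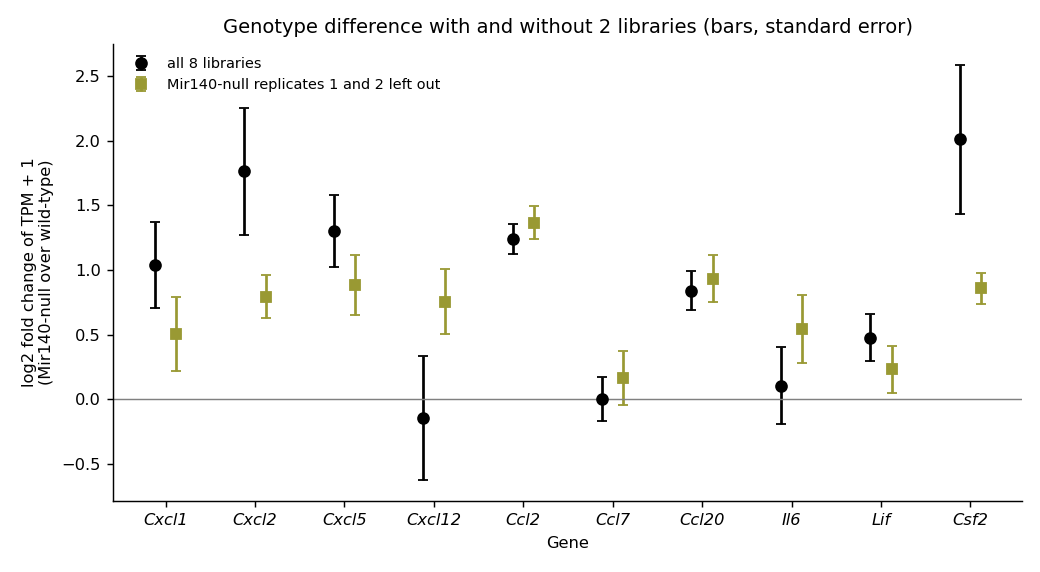
Log2 fold change of TPM + 1, *Mir140*-null over wild-type, of each of the 10 genes with all 8 libraries (black circles) and with *Mir140*-null replicates 1 and 2 left out (olive squares), with bars of 1 standard error from limma. Without these 2 libraries *Cxcl2* and *Csf2* fall to 0.79 and 0.86, *Ccl2* and *Ccl20* stay at 1.37 and 0.93, and *Cxcl12* moves from -0.14 to 0.75.

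The 4 *Mir140*-null libraries divided into the same pairs at every one of the 10 genes, in 2 directions. Replicates 1 and 2 were both above replicates 3 and 4 for *Cxcl1*, *Cxcl2*, *Cxcl5*, *Lif* and *Csf2*, and both below for *Cxcl12*, *Ccl2*, *Ccl7*, *Ccl20* and *Il6*. Over all tested genes the same 2 patterns were found at 19.0% and 37.6%. The sum of the 10 genes spanned 1248 to 2086 TPM in wild-type. It reached 4854 and 5093 TPM in replicates 1 and 2 of the *Mir140*-null cells, with 2142 and 2333 TPM in replicates 3 and 4. Without replicates 1 and 2 the 10 genes had a median log2 fold change of 0.77, beside 0.07 over all tested genes.

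The AU-rich nonamers were set beside these pairs. The 10 genes and the pairs were both picked with these values known, so nothing is read from the member counts. The 4 members with a nonamer were all higher in *Mir140*-null replicates 1 and 2 than in replicates 3 and 4, as was 1 of the 6 members without it, *Cxcl5*. In the rest of the transcriptome the shares with and without the nonamer were close. Of 1059 other tested genes with the nonamer, 19.3% were higher in replicates 1 and 2, and of 11987 tested genes without it, 19.5% were. The 806 other tested genes with the NF-kB motif in the promoter window had 12.3% up-regulated calls, beside 12.1% up-regulated among the 10987 tested genes with a promoter sequence.

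Markers of other cell types that could make these proteins moved with the libraries. The summed TPM of 10 fibroblast and perichondrium markers was 3542 to 6424 in wild-type, 885.1 and 1061 in *Mir140*-null replicates 1 and 2, and 5643 and 4269 in replicates 3 and 4. Collagens and *Postn* made up most of these sums, and *Pdgfra*, a receptor of fibroblasts in the same list, was called up, at 11.8 to 19.8 TPM in wild-type, against 31.5 to 36.5 TPM in *Mir140*-null libraries, replicates 1 and 2 included. Of the 9 tested fibroblast markers 2 were called up and 1 down. The 8 endothelial markers summed to 10.1 and 7.03 TPM in *Mir140*-null replicates 1 and 2 and to 16.1 to 69.1 TPM in the other 6 libraries, with a similar deficit of osteoblast and erythroid markers. The higher *Cxcl1*, *Cxcl2* and *Csf2* values in these 2 libraries thus stood beside lower sums of these 4 marker lists. The part of cell composition in the member values was not tested.

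Leukocyte markers were low in all libraries. The 12 macrophage and monocyte markers summed to 37.3 to 63.6 TPM in wild-type, against 70.8 to 134.4 TPM in *Mir140*-null libraries. *Cd68* was the largest part of the wild-type sums, at 20.01 to 37.0 TPM, and *Cd14*, the lipopolysaccharide co-receptor, that of the *Mir140*-null sums, at 13.5 to 21.4 TPM in the former and 38.9 to 115.9 TPM in the latter. Of the 4 tested markers of this list *Cd14* was called up, while *Lyz2* and *Itgam* were called down (-0.74 and -0.77, adjusted p of limma = 0.0243 and 0.0165). The defining *Adgre1*, which encodes F4/80, did not exceed 0.17 TPM in any library, and *C1qa* did not exceed 0.11 TPM. The 10 neutrophil markers summed to 2.22 to 6.13 TPM in wild-type, against 6.84 to 10.4 TPM in *Mir140*-null libraries, with *Elane* and *Ly6g* at 0 in all *Mir140*-null libraries and in 3 of the 4 wild-type libraries. *Camp*, an antimicrobial peptide gene of neutrophil granules, was called up, from a mean of 1.23 to 4.15 TPM (adjusted p of limma = 0.0238), and was the 1 called gene of the 4 tested. *S100a9*, picked out after its value was seen, was at 0.642 to 2.43 TPM in wild-type and 1.30 to 4.64 TPM in *Mir140*-null libraries. It was not called (log2 fold change 0.75, adjusted p of limma = 0.166). With 1 library left out, *Lyz2* was called in 4 and *Camp* in 6 of the 8 fits, and *Cd14*, *Itgam* and *Pdgfra* in all 8. Without *Mir140*-null replicates 1 and 2, *Cd14* was the 1 of these 5 that was called (adjusted p of limma = 0.0403). These 5 markers were picked out after their values were seen. The 10 lymphocyte and mast cell markers summed to at most 3.11 TPM, and *Nkg7* was listed at 0 throughout.

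**Figure D3:**
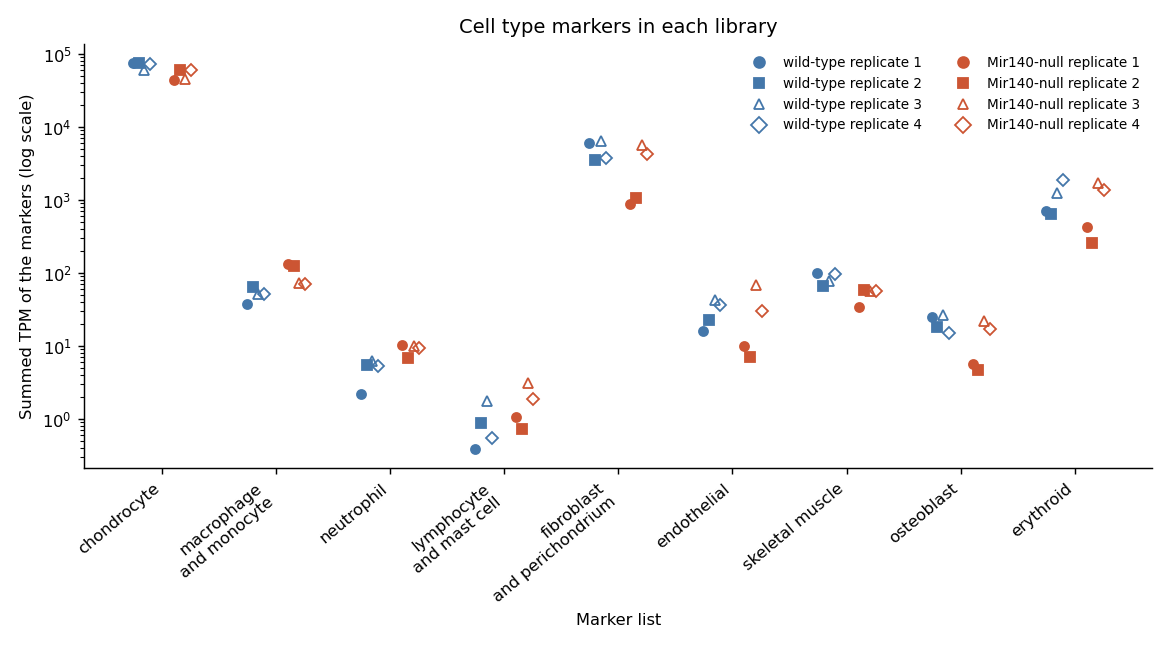
Summed TPM of the genes of each cell type marker list on a log axis in the 4 wild-type (blue) and 4 *Mir140*-null (red) libraries, with filled symbols for replicates 1 and 2. The fibroblast sums of *Mir140*-null replicates 1 and 2, 885.1 and 1061 TPM, lie below the 3542 to 6424 TPM of wild-type, and the lymphocyte and mast cell sums stay at 3.11 TPM or less.

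Most leukocyte receptors for the 7 chemokines were barely present in these cells. *Cxcr2*, the receptor of *Cxcl1*, *Cxcl2* and *Cxcl5*, was at 0.447 to 0.855 TPM in wild-type, against 0.189 to 0.466 TPM in *Mir140*-null libraries and was too low to be tested. *Ccr2* was at 0.141 TPM or less and *Ccr6*, the receptor of *Ccl20*, at 0 in all libraries except *Mir140*-null replicate 3 with 0.043 TPM. *Ccr1* was at 0.541 to 1.17 TPM in wild-type, against 0.745 to 1.11 TPM in *Mir140*-null libraries, and *Ccr3* at 0.112 to 0.250 and 0.270 to 0.847 TPM. *Ackr1*, a decoy receptor of venular endothelium and red cells, was at 14.9 TPM in wild-type replicate 3 and at 1.71 TPM or less in the other 7 libraries.

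*Cxcl12* binds 2 receptors of the list. *Ackr3*, a scavenging receptor, was at 12.9 to 32.8 TPM in wild-type, against 17.6 to 30.5 TPM in *Mir140*-null libraries (log2 fold change -0.05, SE 0.32, adjusted p of limma = 0.93). *Cxcr4* was at 1.30 to 2.44 TPM and 0.348 to 2.17 TPM (-0.55, SE 0.29, adjusted p of limma = 0.211). None of the 8 tested chemokine receptors out of 23 was called by limma, with 1 at an unadjusted p under 0.05, *Ccrl2*, which was lower in *Mir140*-null cells and was picked out after its value was seen. The list median was -0.19, and over all genes 10.5% were called up and 6.40% down.

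The receptors of *Il6*, *Lif* and *Csf2* differed in both directions. *Il6st*, the shared gp130 chain, rose from 306.0 ± 69.7 to 552.8 ± 52.0 TPM (SD, n = 4 each), by 0.88 (SE 0.18) on the log2 scale with an adjusted p of limma of 0.0174. *Mir140*-null libraries spanned 503.5 to 613.0 TPM and wild-type 211.3 to 372.0 TPM, without overlap. *Lifr*, the partner of gp130 for LIF, rose from 10.7 ± 3.26 to 19.9 ± 3.85 TPM (0.86, SE 0.23, adjusted p of limma = 0.0394), and *Osmr*, the related oncostatin M receptor, from 30.7 ± 5.66 to 60.9 ± 14.1 TPM (0.95, SE 0.20, adjusted p of limma = 0.0187). *Il6ra*, which gp130 needs to bind IL-6, was at 3.58 to 5.53 TPM in wild-type, against 2.35 to 4.99 TPM in *Mir140*-null libraries and was not called (adjusted p of limma = 0.342).

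*Csf2ra*, the ligand-specific chain of the GM-CSF receptor, fell in *Mir140*-null cells, in the direction opposite to its ligand. It was at 12.0, 12.9, 13.8 and 13.6 TPM in wild-type and at 3.97, 5.32, 7.94 and 7.20 TPM in *Mir140*-null libraries, a fall to a mean TPM ratio of 0.468 (SE of the log2 change 0.19, adjusted p of limma = 0.0148). The groups did not overlap, and the call was kept in all 8 fits that each left out 1 library and without *Mir140*-null replicates 1 and 2 (adjusted p of limma = 0.0428). The signalling chains *Csf2rb* and *Csf2rb2* were at 0.680 TPM or less in every library. Of the 11 receptor genes of this group, 8 were tested, 3 were called up and 1 down, beside 10.5% and 6.40% of all genes. The call of *Il6st* was lost without *Mir140*-null replicate 2 (adjusted p of limma = 0.0513), that of *Osmr* in 3 of the 8 fits, with an adjusted p of up to 0.0547, and that of *Lifr* in 7, with an adjusted p of up to 0.0983, while their log2 fold changes stayed at 0.71, 0.83 and 0.67 or more in these fits. Without *Mir140*-null replicates 1 and 2 neither *Il6st* nor *Lifr* nor *Osmr* was called, with log2 fold changes of 0.85, 0.84 and 0.68.

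Neighbours of the members in the 2 chemokine clusters did not all follow them. *Cxcl3*, a further *Cxcr2* ligand between *Cxcl5* and *Cxcl1*, was at 4.03, 3.57, 3.22 and 7.05 TPM in wild-type and at 10.5, 11.9, 8.80 and 10.4 TPM in *Mir140*-null libraries. It rose by 1.10 (SE 0.22, adjusted p of limma = 0.0161) without overlap, with a call in all 8 fits with 1 library left out, but not without *Mir140*-null replicates 1 and 2 (0.998, adjusted p of limma = 0.105). The platelet chemokines *Ppbp* and *Pf4* in the same cluster were at 1.01 TPM or less, and *Ppbp* was not called (adjusted p of limma = 0.307). *Cxcl15*, also in this cluster, did not exceed 0.12 TPM. In the CC cluster, *Ccl11* was at 0.346 to 1.72 TPM in wild-type, against 0.221 to 2.64 TPM in *Mir140*-null libraries (adjusted p of limma = 0.936), and *Ccl12*, *Ccl8* and *Ccl1* were at 0.214 TPM or less.

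*Ccl5*, a T cell attractant on the same chromosome as *Ccl2* (chr11:83525778-83530518) and the only other CC chemokine called up, was more abundant than *Ccl2*. It was at 153.4, 208.8, 174.9 and 247.4 TPM in wild-type and at 1531, 868.4, 401.5 and 401.0 TPM in *Mir140*-null libraries, a rise of 1.81 (SE 0.43, adjusted p of limma = 0.0270) with the same pairs of *Mir140*-null libraries as *Cxcl2*. The call was lost in 5 of the 8 fits, without any 1 wild-type replicate or without *Mir140*-null replicate 2, with an adjusted p of up to 0.0712, and was at 0.0502 without *Mir140*-null replicates 1 and 2. *Ccl27a*, a skin chemokine with near-identical copies that can share its reads, fell by 1.62 on the log2 scale (SE 0.44, adjusted p of limma = 0.0414) with overlap between the genotypes, as wild-type replicate 3 was at 0.804 TPM. The call was kept in 2 of the 8 fits, those without wild-type replicate 3 or *Mir140*-null replicate 3, with an adjusted p of up to 0.102. In all, 1 of 7 tested other CXC, CX3C and C chemokines was up (median log2 fold change 0.48), and of 9 tested other CC chemokines 1 was up and 1 down (median 0.12), beside 10.5% and 6.40% of all genes.

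**Figure D4:**
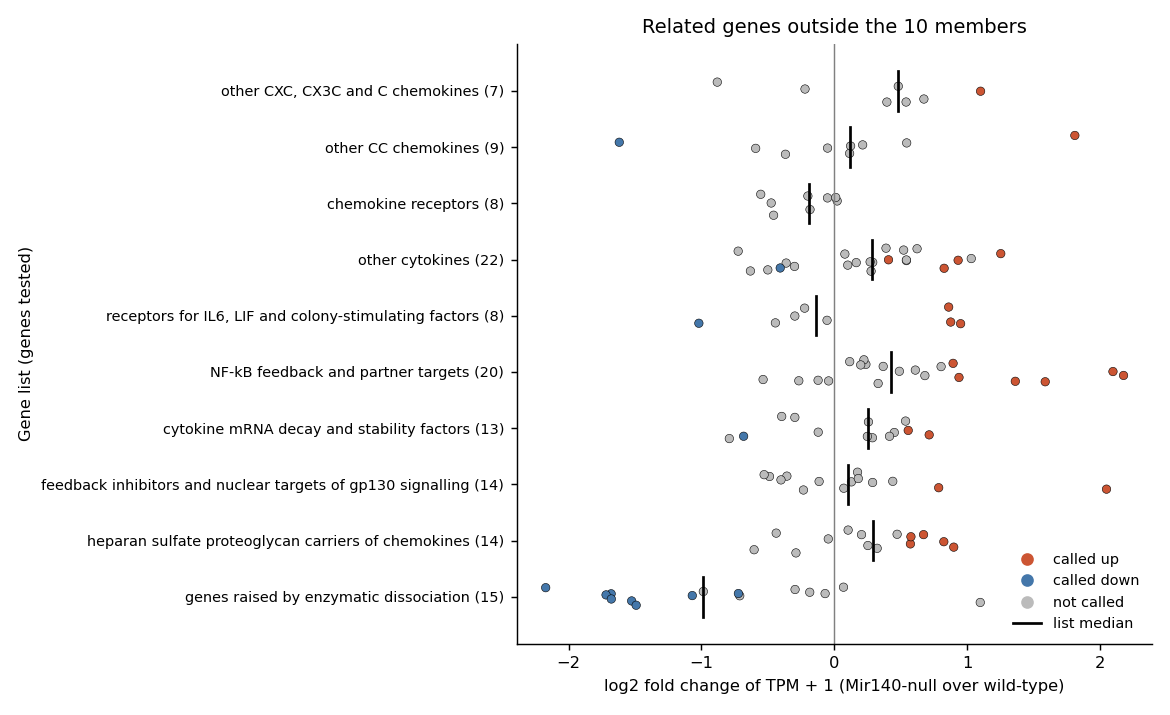
Log2 fold change of TPM + 1, *Mir140*-null over wild-type, of the tested genes in 10 lists of related genes, with the number tested in parentheses, genes called up in red, called down in blue and not called in gray, and a black line at the list median. The chemokine receptors hold no called gene, the NF-kB targets have 6 called up and none called down, and the genes raised by enzymatic dissociation have 8 called down.

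Of 22 other cytokine genes tested, 4 were up-regulated and 1 was down-regulated, beside 10.5% and 6.40% of all genes, with a list median of 0.28. *Tslp*, an epithelial-type alarmin, rose from 0.627 ± 0.170 to 2.14 ± 0.650 TPM (0.93, SE 0.16, adjusted p of limma = 0.0117) and was also called without *Mir140*-null replicates 1 and 2 (adjusted p of limma = 0.0449). *Clcf1*, a cytokine that acts through the CNTF receptor, rose from 20.4 ± 5.42 to 37.1 ± 9.50 TPM (adjusted p of limma = 0.0478). *Tnfsf11*, which encodes the osteoclast factor RANKL, rose from 0.835 ± 0.012 to 1.45 ± 0.268 TPM (0.0410), and *Mif* fell from 118.3 ± 9.24 to 89.2 ± 10.5 TPM (0.0413). *Clcf1* was called in 2, and *Tnfsf11* and *Mif* in 1 of the 8 fits with 1 library left out, with an adjusted p of limma of up to 0.112 over these 3 genes, and none of the 3 without *Mir140*-null replicates 1 and 2.

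Among 20 other genes that NF-kB is known to induce, 6 were up-regulated and none was called down, against 10.5% and 6.40% of all genes, with 11 up and 0 down at an unadjusted p under 0.05 and a list median of 0.43. *Nos2*, the inducible nitric oxide synthase, rose from 6.24 ± 2.70 to 29.4 ± 9.30 TPM (2.10, SE 0.31, adjusted p of limma = 0.0082). *Icam1*, an adhesion molecule for leukocytes, rose from 66.6 ± 19.9 to 341.7 ± 213.4 TPM (2.18, SE 0.42, adjusted p of limma = 0.0158) and the *Mir140*-null replicates had 628.5, 379.4, 167.6 and 191.4 TPM, in the order of their numbers. *Sod2*, a mitochondrial superoxide dismutase, rose by 1.59 (SE 0.26), *Nfkb1*, the p105 precursor of NF-kB p50, by 1.36 (SE 0.21) and *Tnfaip2* by 0.94 (SE 0.19), with adjusted p of limma of 0.0098, 0.0091 and 0.0173. *Nfkbia*, the inhibitor that NF-kB induces as feedback, was not called (0.24, adjusted p of limma = 0.372), and neither was *Tnfaip3*, which encodes the inhibitor A20 (-0.12, adjusted p of limma = 0.780). These 2 were picked out after their values were seen. Without *Mir140*-null replicates 1 and 2, where 2.08% of all genes were called up and 1.22% down, 3 of the 20 were called up, *Nfkb1*, *Sod2* and *Icam1*, with adjusted p of limma of 0.0474, 0.0292 and 0.0492, and the median was 0.35. *Nos2* was at 0.0573 there. With 1 library left out, 4 to 7 of the 20 were called up. *Nos2*, *Nfkb1*, *Sod2* and *Icam1* were called in all 8 of these fits, *Tnfaip2* in 7 and the other one, *Ptgs2*, picked out after its value was seen, in 2.

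Of 13 tested genes that control the decay of cytokine mRNAs, 2 were called up and 1 down, beside 10.5% and 6.40% of all genes. *Elavl1*, which encodes the stabilizing protein HuR, rose from 14.3 ± 0.995 to 24.5 ± 5.67 TPM (adjusted p of limma = 0.0232). *Zc3h12a*, which encodes the endonuclease Regnase-1, rose from 26.8 ± 4.29 to 39.6 ± 2.60 TPM (0.0272). *Tia1*, a translational repressor at AU-rich elements, fell from 16.4 ± 3.38 to 9.78 ± 1.56 TPM (0.0362). These 3 genes were called in 4, 3 and 1 of the 8 fits with 1 library left out. None was called without *Mir140*-null replicates 1 and 2. Their log2 fold changes there were 0.50, 0.60 and -0.57, beside 0.72, 0.56 and -0.68 with all libraries. Of 14 tested feedback inhibitors and nuclear targets of gp130 and related receptors, 2 were called up and 12 were not called, beside 10.5% up over all genes. At an unadjusted p under 0.05, 2 were up and 3 down. *Cish*, a SOCS-family feedback inhibitor, rose from 3.02 ± 1.06 to 16.2 ± 6.23 TPM (2.05, SE 0.30, adjusted p of limma = 0.0079). *Bcl6* rose from 6.33 ± 1.59 to 11.5 ± 1.45 TPM (adjusted p of limma = 0.0292). *Bcl6* was called in 4 of the 8 fits with 1 library left out, and *Cish* in all 8. The median of these 14 genes was 0.10.

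Heparan sulfate proteoglycans hold secreted chemokines in the matrix. Of 14 tested genes for their core proteins and sulfation, 5 were called up and none down, beside 10.5% and 6.40% of all genes. At an unadjusted p under 0.05, 6 were up and 2 down, and the median was 0.29. *Gpc3* rose from 119.2 ± 5.62 to 212.5 ± 20.3 TPM (0.83, SE 0.10, adjusted p of limma = 0.0051), *Agrn* from 13.3 ± 0.810 to 21.8 ± 1.72 TPM (0.67, SE 0.10, 0.0088) and the sulfotransferase gene *Ndst1* from 4.66 ± 0.801 to 9.50 ± 0.731 TPM (0.90, SE 0.14, 0.0093). These 3 were called in all 8 fits with 1 library left out, and *Gpc3* and *Ndst1* also without *Mir140*-null replicates 1 and 2. *Gpc1* (0.58, adjusted p of limma = 0.0219) and *Sdc3* (0.57, adjusted p of limma = 0.0493) were called in 5 and 2 of these 8 fits.

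Genes that enzymatic release of cells from tissue is known to induce went the other way. Of 15 genes, 8 were down-regulated and none was called up (9 and 1 at an unadjusted p under 0.05), against 6.40% and 10.5% of all genes, with a median of -0.99. *Fos* was at 2761, 951.1, 1418 and 1541 TPM in wild-type and at 253.8, 304.8, 571.3 and 311.0 TPM in *Mir140*-null libraries, and fell by 2.17 on the log2 scale (SE 0.35, adjusted p of limma = 0.0099). *Egr1* fell from 1766 ± 271 to 623.0 ± 158 TPM, *Atf3* from 2464 ± 895 to 752.2 ± 171 TPM, *Fosb* from 593.6 ± 114 to 188.6 ± 53.8 TPM and *Ier2* from 395.1 ± 135 to 137.5 ± 32.2 TPM (adjusted p of limma = 0.0060, 0.0097, 0.0073 and 0.0116). The wild-type replicate 1, which held the most *Cxcl1* and *Cxcl2* of its group, also held the most *Fos*, *Egr1*, *Atf3*, *Fosb* and *Ier2*. The *Mir140*-null libraries differed from this. Their replicates 1 and 2, with the most *Cxcl1* and *Cxcl2*, held less *Fos*, *Egr1* and *Ier2* than replicates 3 and 4. *Egr1* was at 457.8 and 518.3 TPM in the former and at 756.4 and 759.5 TPM in the latter. For *Atf3* and *Fosb*, replicate 1 was the lowest of the *Mir140*-null libraries and replicate 2 the highest. The part of handling in the member values was not tested. Without *Mir140*-null replicates 1 and 2, 2 of the 15 were called down, and the median was -0.94.

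The genes whose log2(TPM + 1) was most like that of the most abundant and of the most divergent member were sought over the 8 libraries, as a description across libraries that share their processing. *Csf1*, which encodes the macrophage growth factor M-CSF, had the highest Pearson r with *Cxcl1*, 0.988, followed by *Zmym5*, *H2-D1*, *Rbm12b2* and *Syvn1* at 0.979 to 0.970. *Csf1* was at 148.4, 97.7, 71.8 and 114.2 TPM in wild-type and at 289.4, 325.7, 138.0 and 163.2 TPM in *Mir140*-null libraries, which follows the order of the *Cxcl1* values except that wild-type replicate 1 and *Mir140*-null replicate 4 change places. With the genotype means removed its r was 0.973. For *Cxcl12* the 5 most alike were *Senp8* (0.985), *Cpt1a*, *Antxr1*, *Fzd4* and *Wfdc1* (0.980), each lower in *Mir140*-null replicates 1 and 2 than in the other 6 libraries.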

How the data were processed

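RNA-seq libraries of rib chondrocytes from 4 wild-type and 4 *Mir140*-null samples were grouped by labelled genotype. Deposited values were TPM for each Ensembl gene. For these the authors quantified stranded, single-end mRNA reads with Salmon against mm10 transcripts. Neither its version nor how transcripts were summed to genes is given in the sources used here. TPM hold no scaling between libraries, and the depth of each library cannot be read from them. The study states only a minimum number of reads, so no counting intervals were computed. Identifiers listed on several lines were counted once, which left 52325. No 2 libraries were identical.

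Genes reaching 0.5 TPM in 4 or more of the 8 libraries (17177) were fitted with limma 3.58.1 in R 4.3.3 on log2(TPM + 1), with a mean-variance trend and genotype as the only term. P-values are two-sided, adjusted by the Benjamini-Hochberg method over all tested genes, and genes under 0.05 were called. The fit was tested on simulated data with a log2 change of 1 set in 200 of the more abundant genes. It recovered 92 of them (46%), with 5 false calls among the other genes. A gene that was not called can therefore still differ between the genotypes. The simulated noise was independent between genes and libraries, while the real *Mir140*-null libraries fell into pairs at many genes. Far more genes were also called in the real data than the 200 changed here. The simulated rates of recovery and false calls therefore need not hold for the real libraries. Fold changes are on the log2(TPM + 1) scale and understate changes of low genes. Symbols, positions and 3′UTRs came from GENCODE M21, promoters and the microRNA from RefSeq. Other computations used Python 3.11.15 with pandas 2.3.3, NumPy 2.4.6 and matplotlib 3.10.9.

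The 10 genes, the lists and the tests were chosen with earlier results of these data known. Besides the members, the genes named are the members' receptors, up to 5 called genes of each list in each direction by smallest p, chemokine genes in the members' clusters, the 5 tested genes most like *Cxcl1* and *Cxcl12*, *Mir140*, *Wwp2* and defining cell type markers. Some genes covered by this rule are not reported here. Genes outside it are marked as picked out after their values were seen. The host gene *Wwp2* was at 331.9 to 459.2 TPM in wild-type and 260.7 to 393.6 TPM in *Mir140*-null libraries. The alternatives were a pseudocount of 0.1, no filter, a mean of at least 5 TPM, quantile normalization, median-ratio scaling, a block for replicate number, 1 factor of unwanted variation from residuals, and each library left out. Leaving out *Mir140*-null replicates 1 and 2 together was added after seeing the data.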

Additional observations from a re-analysis of the deposited data

Results flagged for a closer look

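In 9 of 144 groups of 4 libraries (72 genes with their values in the text), the highest or lowest library lay farther from the rest than Dixon's 95% critical value allows for the ratio of the gap to the range. Chance flags about 1 in 20 groups. None of the 10 members was among them. *Ackr1* was at 14.9 TPM in wild-type replicate 3, with the other wild-type libraries at 0.576 TPM or less, and at 1.71 TPM in *Mir140*-null replicate 3, with the other *Mir140*-null libraries at 0.181 TPM or less. *Mir140* was at 8.86 TPM in *Mir140*-null replicate 2 and at 0 in the other *Mir140*-null libraries. *Ccl27a* was at 0.804 TPM in wild-type replicate 3 and at 5.30 to 5.84 TPM in the other wild-type libraries. *Tslp* was at 3.11 TPM in *Mir140*-null replicate 1 and at 1.71 to 1.90 TPM in the other *Mir140*-null libraries. *Tia1* was lowest in *Mir140*-null replicate 2 at 7.44 TPM, below 10.4 to 10.7 TPM, and *Sdc3* in *Mir140*-null replicate 3 at 63.3 TPM, below 81.6 to 83.4 TPM. *Zmym5* was highest in wild-type replicate 1 at 15.7 TPM, with the others at 13.5 TPM or less, and *Antxr1* in wild-type replicate 3 at 21.0 TPM, above 15.9 to 16.3 TPM.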

How the results depend on the processing

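None of the genes named as receptors, cluster neighbours, called list genes or genes most like a member reversed a called difference under any alternative. Cell type markers and genes picked out after their values were seen were not part of this check. The replicate block and the factor of unwanted variation cannot move a log2 fold change by construction, so they bear on the calls only. Among the members, *Ccl7*, *Cxcl12* and *Il6*, which overlapped between the genotypes, spanned log2 fold changes on both sides of 0 over the alternatives other than the omission of *Mir140*-null replicates 1 and 2 together, -0.16 to 0.10, -0.45 to 0.20 and -0.13 to 0.32, and the other 7 stayed positive. The log2 fold change of *Cxcl5* was 2.16 with a pseudocount of 0.1, and that of *Ccl2* was 1.07 after quantile normalization. With a mean of at least 5 TPM, *Cxcl5* and *Cxcl12* were not fitted. Without *Mir140*-null replicates 1 and 2, *Cxcl2*, *Cxcl12* and *Csf2* were at 0.79, 0.75 and 0.86.

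Replicate numbers do not pair the libraries: the correlations of deviations from the genotype means of same-numbered libraries were 0.03, 0.02, 0.07 and -0.01. With the replicate block, 671 genes were called up and 454 down. In the lists the block gave 2 up among the other CXC, CX3C and C chemokines, 0 up and 0 down among the other CC chemokines, 1 up and 0 down among the other cytokines, 0 up and 0 down among the mRNA decay factors, 1 up among the gp130 targets, 3 up among the proteoglycan genes and 3 down among the dissociation genes.

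Median-ratio scaling gave 1584 genes up and 1129 down, beside 1797 and 1100 as deposited, with 0 down among the mRNA decay factors and 1 down among the proteoglycan genes. Quantile normalization gave 0 down among the other CC chemokines, 2 down among the mRNA decay factors and 2 down among the proteoglycan genes. Without the filter, 977 genes were up and 539 down, with 0 up and 0 down among the other CC chemokines, 1 up and 0 down among the other cytokines, 1 up and 0 down among the mRNA decay factors and 1 up among the gp130 targets. With a mean of at least 5 TPM, 605 genes were down, with 0 down among the other CC chemokines and 2 up among the other cytokines. With 1 factor of unwanted variation, 2016 genes were down, with 2 up among the other CXC, CX3C and C chemokines, 3 down among the other CC chemokines, 2 down among the chemokine receptors, 5 up and 3 down among the mRNA decay factors, 2 down among the proteoglycan genes and 1 up among the dissociation genes.

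Leaving out *Mir140*-null replicates 1 and 2 left 357 genes up and 210 down, with 0 up among the other CXC, CX3C and C chemokines, 0 up and 0 down among the other CC chemokines, 1 up and 0 down among the other cytokines, 0 up among the receptors of IL6, LIF and colony-stimulating factors, 3 up among the NF-kB targets, 0 up and 0 down among the mRNA decay factors, 1 up among the gp130 targets, 2 up among the proteoglycan genes and 2 down among the dissociation genes. This fit has fewer libraries.

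With each library left out in turn, 779 to 1553 genes were up and 419 to 1214 down, fewest up without *Mir140*-null replicate 2 and fewest down without wild-type replicate 4. The lists ranged over 1 to 2 up and 0 to 1 down (other CXC, CX3C and C chemokines), 0 to 2 up and 0 to 2 down (other CC chemokines), 0 to 2 down (chemokine receptors), 1 to 5 up and 0 to 1 down (other cytokines), 0 to 2 up (receptors of IL6, LIF and colony-stimulating factors), 4 to 7 up (NF-kB targets), 0 to 3 up and 0 to 1 down (mRNA decay factors), 1 to 3 up and 0 to 1 down (gp130 targets), 3 to 6 up and 0 to 1 down (proteoglycan genes) and 0 to 1 up (dissociation genes). The cause of these changes was not tested. Depth is unknown, so genes near 0.5 TPM, such as *Cxcl5* in wild-type, have an unknown counting error.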
